A study of Rattus norvegicus with 93 samples.

Results

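The effect of defect size on the healing skull was examined at day 10 after surgery, as the difference between 8 mm and 4 mm holes. The members are the 10 arrays whose labels give day 10, out of 93 arrays in all: 6 arrays of 8 mm defects and 4 arrays of 4 mm defects. The animals were male rats, 12 weeks old, of a strain not given in the sources used here. A round hole of either size was cut with a trephine in the calvaria (the skull roof), and the disc of bone was lifted out. In both sizes the dura mater, the outer membrane of the brain, was left in place, the wound was sutured and no treatment followed. The series calls the 8 mm hole a critical-size defect, meaning one of a size that does not close by itself, and the 4 mm hole a defect below that size. Each array holds total RNA of 1 defect, taken out with the trephine that had made it, so the plug holds whatever cells lay in that circle, and neither unoperated skull nor tissue from next to the hole was analysed here. The labels number the rats 10 to 15 among the 8 mm defects and 10 to 13 among the 4 mm defects, and do not say whether a number shared between sizes means the same animal.

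Flat skull bones form directly in connective tissue that lies over the dura, without a cartilage model, and the dura supplies signals and bone-forming cells to a healing hole. The forkhead factors Foxc1 and Foxc2 act in the mesenchyme that gives rise to meninges and calvaria, and loss of Foxc1 in mice leaves the skull roof open. Type IX collagen, to which Col9a2 contributes a chain, coats collagen fibrils of cartilage. Slc5a6 is the sodium-dependent carrier that brings biotin and pantothenate into cells.

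Foxc1, Col9a2 and Slc5a6 marked the day 10 comparison and were higher in 8 mm defects, so the stretches around their starts are shown for comparison with each other. Each spans 300 bases around the start of the RefSeq gene, most of them before it, in the rat assembly GRCr8, 5′ to 3′ on the strand of the gene. Capitals mark the GC box GGGCGG (searched on both strands, CCGCCC on the other), a common element of promoters without a TATA box. The windows lie at chr17:32844051-32844350 on the minus strand (Foxc1), chr5:139892548-139892847 on the plus strand (Col9a2) and chr6:31040150-31040449 on the plus strand (Slc5a6).
Foxc1: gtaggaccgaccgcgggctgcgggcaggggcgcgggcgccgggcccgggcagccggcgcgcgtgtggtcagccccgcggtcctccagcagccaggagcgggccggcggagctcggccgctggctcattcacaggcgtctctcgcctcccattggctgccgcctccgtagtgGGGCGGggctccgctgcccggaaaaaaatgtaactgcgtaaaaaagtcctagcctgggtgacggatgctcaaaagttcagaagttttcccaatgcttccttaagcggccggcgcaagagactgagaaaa
Col9a2: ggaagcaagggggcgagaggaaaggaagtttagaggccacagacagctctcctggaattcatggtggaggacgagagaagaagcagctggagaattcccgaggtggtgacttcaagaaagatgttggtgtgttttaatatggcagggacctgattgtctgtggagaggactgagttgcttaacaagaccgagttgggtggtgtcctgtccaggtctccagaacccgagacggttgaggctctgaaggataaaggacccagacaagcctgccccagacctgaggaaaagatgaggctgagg
Slc5a6: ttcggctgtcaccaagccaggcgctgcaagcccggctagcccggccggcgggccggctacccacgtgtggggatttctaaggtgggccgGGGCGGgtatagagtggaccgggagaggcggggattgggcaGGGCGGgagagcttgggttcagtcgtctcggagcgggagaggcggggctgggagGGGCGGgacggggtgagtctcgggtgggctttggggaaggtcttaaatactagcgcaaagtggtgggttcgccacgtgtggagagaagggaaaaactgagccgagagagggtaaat
The Foxc1 window held 1 GC box, the Col9a2 window 0 and the Slc5a6 window 3. The CCAAT box (CCAAT, or ATTGG on the other strand) was found 2 times in the Foxc1 window, 0 times in that of Col9a2 and 1 time in that of Slc5a6. None of these 3 windows held TATAAA or the forkhead motif GTAAACA on either strand. Of the 40 genes called higher in 8 mm defects, 27 matched a promoter entry. A GC box was in 18 of these 27 (66.67%), against 51.24% of the 12960 promoters of measured genes and 34.89% of all 27457 promoters of the table. CCAAT was in 9 of 27 (33.33%, against 37.98% of measured genes and 37.74% of all), GTAAACA in 1 (3.7%, against 2.83% and 3.76%) and TATAAA in 1 (3.7%, against 11.17% and 14.26%). These matches describe the letters only.

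The values are log2 of the deposited ratio of a probe to a fixed value near its median over the 93 arrays, so that 0 is the usual level of that probe and levels of different genes cannot be set against each other. The lowest ratio in the table is 0.01 (log2 -6.64), and a value there has no order. On the day 10 arrays 10.4% to 20.3% of probes stood at this floor in 8 mm defects and 13.8% to 19.3% in 4 mm defects, and the means differed by -0.09 percentage points (exact permutation test, two-sided, p = 0.971). An array's level, taken as the median log2 value over probes that are above the floor on all 93 arrays, lay between -0.97 and 0.37 in 8 mm and between -1.03 and 0.42 in 4 mm defects, a difference of -0.14 (exact permutation test, two-sided, p = 0.71). It was below -0.7 on 3 arrays: rats 10 and 11 of the 8 mm group and rat 10 of the 4 mm group. No pair of the 10 arrays was a copy, with correlations between -0.04 and 0.25 over genes. Of the markers of the labelled tissue, osteocalcin (Bglap) lay between 4.08 and 5.73 in 8 mm defects and between 1.65 and 5.83 in 4 mm defects, above its usual level over the 21 days on every array. The bone formation list was less even: averaged over its 25 measured genes, log2 values lay between 0.076 and 0.86 in 8 mm defects and between -0.68 and 0.58 in 4 mm defects, and below 0 on the 4 mm arrays of rats 10 and 11, each with 4 of the 25 genes at the floor.

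A small set of genes was called higher in the larger defects at day 10, and fewer were called lower. Of 15974 genes tested, 42 (0.263%) passed the limma test with an adjusted p under 0.05. Of these, 40 (0.25% of the genes tested) were higher and 2 (0.0125%) were lower in 8 mm defects. The split was more even at an unadjusted p under 0.05 (limma), with 773 genes higher and 631 lower. Of the differences of all genes, 7084 were positive and 8890 negative. Differences are 8 minus 4 mm estimates ± SE of limma from a model of all 14 groups of day and size, with p-values adjusted by the Benjamini-Hochberg method over all genes. The spread is therefore pooled within groups over 93 arrays. SE and p-values measure this pooled spread between samples, not that of the 10 arrays compared. The spread at day 10 could be larger or smaller. In 4 mm defects (n = 4) the SD was 2.66 for Armc5 and 0.12 for Col8a1, while their SE were 0.48 and 0.46. Only 17 of the 42 lay above the floor on all 10 arrays, as 7937 genes did, and all 17 were higher. In the other 25 at least 1 value stood at the floor. The median difference of all genes was -0.11. With every array centred on its own median it became 0.03, and 93 genes passed, 78 of them higher (83.9%, against 95.2% without centring). With the 10 arrays fitted alone 8 genes passed, of which 1 is among the 42 and 0 among the 17, and quantile normalization left 12. Of the 17, quantile normalization left 2, array weights left 5 and leaving out the 3 arrays of low level left 6. All 42 genes kept their sign in each of the alternatives that tested them.

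The 6 values of Foxc1 in 8 mm defects were 0.90, 0.73, 0.91, 2.25, 2.06 and 2.19 (rats 10 to 15), against -1.48, -0.50, -4.21 and -0.64 in 4 mm defects (rats 10 to 13). Every 8 mm array lay above every 4 mm array, and rat 12 of the 4 mm group was the lowest by far. The means were 1.50 ± 0.73 (SD, n = 6) in 8 mm and -1.71 ± 1.72 (SD, n = 4) in 4 mm defects. The difference was 3.21 ± 0.77 (limma, adjusted p = 0.0333), which is 9.28-fold. The adjusted p was 0.276 without rat 12 of the 4 mm group, 0.0598 without rat 10 of that group, and 0.0898, 0.0729 and 0.0815 without rats 13, 14 and 15 of the 8 mm group. Quantile normalization ended the call (limma, adjusted p = 0.465). So did raising deposited ratios under 0.25 (before log2 was taken) to 0.25 (limma, adjusted p = 0.0725). The Foxc1 call also ended with array weights, with the less variable genes left out, without the 3 arrays of low level and with the 10 arrays alone (limma, adjusted p from 0.066 to 0.529).

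Its close relative Foxc2 ran with it. Foxc2 measured 2.06, 1.31, 1.87, 3.10, 3.04 and 3.31 in 8 mm defects, against -2.96, 0.63, -6.64 and 0.15 in 4 mm defects. The groups did not overlap, and the 4 mm array of rat 12, at the floor, was again the lowest. The difference was 4.66 ± 0.82 (limma, adjusted p = 0.00062), and 0.0506 was the adjusted p without rat 12 of the 4 mm group. Another probe of Foxc2 differed by only 0.19, so the probes of this gene disagree.

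Transcription factors of skull and suture had mostly positive differences. Of 16 measured members of a list of such factors, Foxc1 and Foxc2 included, 4 were called higher (against 0.25% of all genes) and 0 lower. The differences were positive in 12 and negative in 4 (Lmx1b, Prrx1, Prrx2 and Gli1, none of which passed), and the median difference of the list was 1.15, against -0.11 for all genes. Besides Foxc1 and Foxc2 the 4 were Tfap2b, an AP-2 factor of the neural crest, and Zic1, a zinc-finger factor of the meninges and the coronal suture region. Tfap2b measured 2.24, 0.77, 0.73, 2.76, 2.49 and 3.16 in 8 mm defects and -2.92, -6.64, -2.23 and -0.52 in 4 mm defects, with no overlap (5.10 ± 1.09, limma, adjusted p = 0.0104, and 0.139 without rat 11 of the 4 mm group). Zic1 measured -0.44, 0.35, -0.81, 1.59, 1.65 and 0.62 in 8 mm defects, against -6.64, -0.18, -6.64 and -2.10 in 4 mm defects. Here rat 11 of the 4 mm group lay within the 8 mm range, and 2 of 4 values of 4 mm defects were at the floor (4.38 ± 1.04, limma, adjusted p = 0.0322). Leaving out rat 10 or 12 of the 4 mm group or rat 13, 14 or 15 of the 8 mm group ended the Zic1 call (limma, adjusted p from 0.0687 to 0.213). Raising ratios under 0.25 to 0.25 ended it too (limma, adjusted p = 0.155). Tbx18, a T-box factor of mesenchyme, differed by 1.71 ± 0.51 and Msx1, a homeobox factor of the calvaria, by 1.16 ± 0.49, and neither passed (limma, adjusted p = 0.144 and 0.422). With each array centred both did (limma, adjusted p = 0.00472 and 0.0484), as did Tbx18 without rat 11 of the 8 mm group (limma, adjusted p = 0.0352). Twist1, whose loss fuses the coronal suture, differed by 0.29 ± 0.49.

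Markers of meninges had mostly positive differences too. Of 12 measured genes of a meninges and dura list, 10 had a positive difference (83.3%, against 44.3% of all genes) and 3 were called higher (against 0.25% of all genes), namely Cldn11 with Foxc1 and Zic1, which both lists hold. The lists are thus not independent, and these counts too are a description, since Foxc1 marked this comparison. The meninges and dura list had the highest median difference of the 28 lists, 2.37, and 1.60 was its lowest value under 21 alternatives. Cldn11, a tight-junction protein of the arachnoid barrier and of myelin, measured 1.85, 0.05, 1.17, 1.10, 3.08 and 2.56 in 8 mm defects, against -0.96, -2.36, -2.05 and -6.64 in 4 mm defects. The Cldn11 groups did not overlap (4.64 ± 1.11, limma, adjusted p = 0.0328), and the call ended without rat 13 of the 4 mm group (limma, adjusted p = 0.232) or without rat 10, 13, 14 or 15 of the 8 mm group (limma, adjusted p from 0.0516 to 0.0785).

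Igf2, a growth factor made by the meninges and in bone, lay between 1.33 and 3.68 in 8 mm defects and between -1.33 and 0.82 in 4 mm defects. The groups did not overlap, but the difference of 2.83 ± 0.87 did not pass (limma, adjusted p = 0.158). With ratios under 0.25 raised to 0.25 it passed (limma, adjusted p = 0.0068). The prostaglandin D synthase Ptgds, abundant in arachnoid cells, measured 1.45, -3.49, 3.08, 3.31, 1.94 and 6.0 in 8 mm defects and 2.72, -3.17, -3.74 and -2.56 in 4 mm defects, and the groups overlapped (3.74 ± 1.74, limma, adjusted p = 0.504). Rat 10 was the 1 array of the 4 mm group with a high Ptgds value.

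The mean log2 value of the 12 genes on an array was 0.85, -0.56, 0.18, 0.68, 1.00 and 2.36 in 8 mm defects, against -0.58, -2.13, -1.29 and -2.04 in 4 mm defects. The lowest 8 mm array, rat 11, and the highest 4 mm array, rat 10, lay next to each other at -0.56 and -0.58. These means include values at the floor: 3 of the 12 genes stood there on each of the 4 mm arrays of rats 11 and 13, 1 on each of the other 4 mm arrays, and 0 or 1 on each 8 mm array. No marker was at the floor on all arrays of a size: the organic anion carrier Slc22a6 stood there on 1 of 6 arrays of 8 mm and 2 of 4 arrays of 4 mm defects. Whether more meningeal cells came out with the larger plug was not tested, and in a plug of bulk tissue more cells of a type and more RNA per cell cannot be told apart. This applies to each gene described here.

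**Figure D1:**
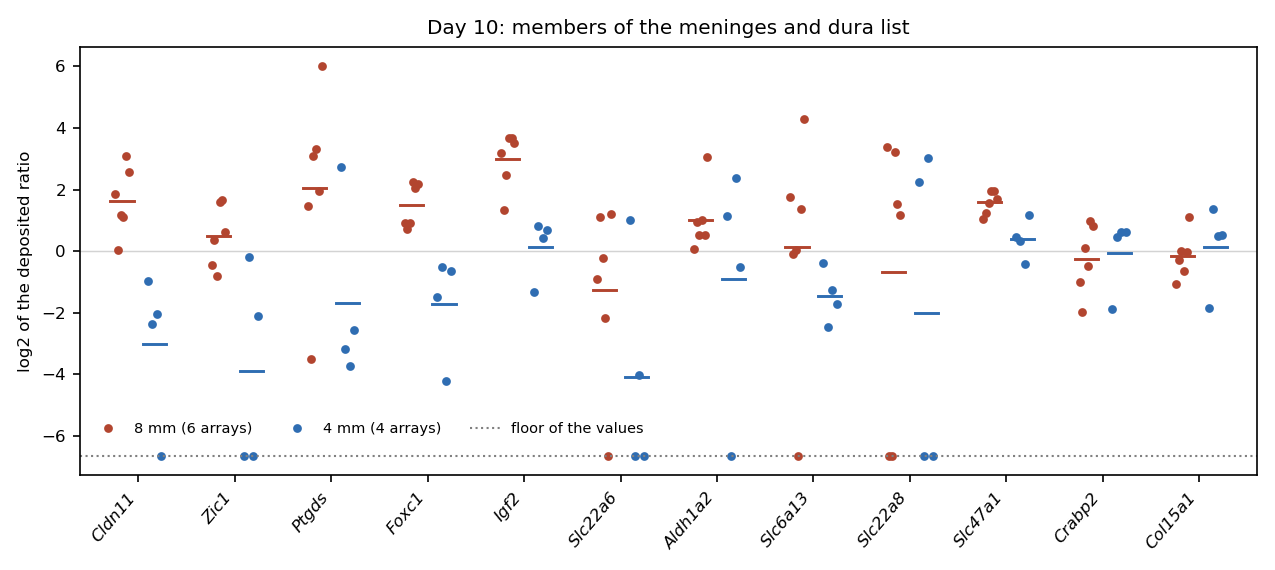
Log2 of the deposited ratio (vertical axis) of the 12 measured genes of the meninges and dura list on the 6 arrays of 8 mm (left of each gene) and the 4 arrays of 4 mm defects at day 10; bars are group means, and the dotted line is the floor. Foxc1, Igf2 and Cldn11 do not overlap between sizes, while Crabp2 and Col15a1 have slightly negative differences.

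Collagens and matrix proteins of cartilage and fibrous tissue formed another part of the called genes. Col9a2 measured 3.36, 0.84, 2.75, 4.24, 3.63 and 2.47 in 8 mm defects, against 0.06, -0.57, -1.30 and -0.62 in 4 mm defects. All 6 arrays of 8 mm lay above all 4 arrays of 4 mm defects, with rat 11 the lowest of the 8 mm group. The means were 2.88 ± 1.18 (SD, n = 6) in 8 mm and -0.61 ± 0.56 (SD, n = 4) in 4 mm defects, a difference of 3.49 ± 0.74 (limma, adjusted p = 0.0101) or 11.2-fold. No single array, when left out, ended this call, though quantile normalization did (limma, adjusted p = 0.257). It also ended with the less variable genes left out and with the 10 arrays fitted alone (limma, adjusted p = 0.0684 and 0.42).

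Epyc, a small leucine-rich proteoglycan of cartilage and the inner ear, measured 3.56, 1.82, 2.84, 4.43, 4.37 and 2.21 in 8 mm defects, against -0.80, -1.02, -1.65 and -0.66 in 4 mm defects. The groups lay far apart, and the 4 mm arrays lay close together. The difference was 4.24 ± 1.01 (limma, adjusted p = 0.0328), but leaving out rat 10, 13 or 14 of the 8 mm group or rat 10, 11 or 12 of the 4 mm group gave adjusted p-values from 0.0548 to 0.0966.

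The cartilage list as a whole was mixed. Of 18 measured members 2 were called, Col9a2 and Epyc, against 0.25% of all genes called higher, and Col9a2 marked this comparison. Differences were positive in 12 (66.7%, against 44.3% of all genes), and the median was 0.61. Col2a1, the main collagen of cartilage, differed by 2.36 ± 1.28 and Sox9, the master factor of chondrocytes, by 3.42 ± 1.91, with values at the floor in both (limma, adjusted p = 0.614 and 0.631). The large cartilage proteoglycan Acan differed by 0.22 ± 0.89, and the partner chains Col9a1 and Col9a3 by 0.38 ± 0.59 and -1.13 ± 2.33.

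The chains of type VIII collagen, a short network collagen of vessel walls and of the cornea, were both called. Col8a2 measured 1.50, 1.31, 1.83, 2.27, 2.34 and 1.74 in 8 mm defects, against -2.30, 0.51, 0.17 and 0.65 in 4 mm defects (2.07 ± 0.42, limma, adjusted p = 0.00653). The groups did not overlap, rat 10 of the 4 mm group stood far below the others, and without it the call ended (limma, adjusted p = 0.149). Another probe of Col8a2 differed by 0.58, and the mean of the probes by 1.32 (limma, adjusted p = 0.378). Col8a1, singled out here after its values were seen, measured 0.59, 1.28, 1.27, 1.49, 1.88 and 1.07 in 8 mm defects, against -0.68, -0.65, -0.87 and -0.60 in 4 mm defects, the tightest 4 mm group of the 17 genes (1.96 ± 0.46, limma, adjusted p = 0.0322). Its call ended without rat 13, 14 or 15 of the 8 mm group or rat 10, 11 or 12 of the 4 mm group (limma, adjusted p from 0.0556 to 0.0781).

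Timp3 is an inhibitor of metalloproteases that stays bound to matrix. Among 18 measured proteases and inhibitors, with a median of -0.29, it was the 1 called gene (against 0.25% of all genes called higher). It measured 0.88, 0.62, 1.11, 0.28, 1.51 and 1.59 in 8 mm defects and -2.94, -0.17, -1.14 and 0.63 in 4 mm defects, so that rat 13 of the 4 mm group lay within the 8 mm range (1.90 ± 0.41, limma, adjusted p = 0.0146). Without rat 10 of the 4 mm group or rat 15 of the 8 mm group it did not pass (limma, adjusted p = 0.195 and 0.0529).

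Slc5a6, the carrier of biotin and pantothenate, measured 0.69, 0.71, 1.38, 2.19, 2.09 and 1.20 in 8 mm defects, against -1.82, -0.47, -1.05 and -0.25 in 4 mm defects, with no overlap. The means were 1.38 ± 0.65 (SD, n = 6) in 8 mm and -0.90 ± 0.70 (SD, n = 4) in 4 mm defects, a difference of 2.28 ± 0.40 (limma, adjusted p = 0.00062) or 4.84-fold. The call held with each array left out and under both scalings, and was lost with the 10 arrays fitted alone (limma, adjusted p = 0.529). Of 16 measured carriers of vitamins and nutrients Slc5a6 was the only one called, against 0.25% of all genes called higher, and Slc5a6 marked this comparison. The list median was -0.15, and 4 of 16 differences were positive. Of 15 measured enzymes that use or activate biotin and pantothenate, none passed (against 0.263% of all genes), with a median of 0.24. The biotin enzyme pyruvate carboxylase (Pc) differed by 0.30 ± 0.49. The bicarbonate carrier Slc4a4 measured 1.84, 1.11, 1.97, 2.78, 2.96 and 2.40 in 8 mm defects, against -1.07, -0.90, -0.27 and 0.44 in 4 mm defects, without overlap (2.63 ± 0.62, limma, adjusted p = 0.0322). The Slc4a4 call ended without rat 13, 14 or 15 of the 8 mm group or rat 10, 11 or 12 of the 4 mm group (limma, adjusted p from 0.0507 to 0.102).

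Among secreted factors Igfbp2, a binding protein that holds insulin-like growth factors in the tissue, had the largest difference of the 17 genes above the floor. It measured 3.39, 0.73, 2.39, 3.89, 4.13 and 3.68 in 8 mm defects, against -1.12, -1.59, -4.25 and -1.36 in 4 mm defects. The groups did not overlap, with rat 11 the lowest of the 8 mm group and rat 12 far below the rest of the 4 mm group. The difference was 5.11 ± 1.25 (limma, adjusted p = 0.0375) or 34.7-fold. The Igfbp2 call ended without any 1 of the 4 mm arrays of rats 10, 11 and 12 or of the 8 mm arrays of rats 10, 13, 14 and 15 (limma, adjusted p from 0.053 to 0.185). Igfbp2 was the only called member of 23 measured genes of FGF, IGF and hedgehog signalling, against 0.25% of all genes called higher. The median of that list was -0.16 and changed sign in 7 of 21 alternatives.

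Ghrh, the growth hormone releasing hormone of the hypothalamus, measured 3.61, 1.33, 1.91, 3.27, 1.88 and 3.21 in 8 mm defects, against 0.42, -2.64, -2.26 and -0.18 in 4 mm defects. The groups did not overlap (3.70 ± 0.89, limma, adjusted p = 0.0333), yet another probe of the gene differed by 0.76 and the mean of the probes by 2.23 (limma, adjusted p = 0.106), and the call ended without rat 10, 13 or 15 of the 8 mm group or rat 11 or 12 of the 4 mm group (limma, adjusted p from 0.0815 to 0.155). The gap-junction protein Gjb2 (connexin 26), found in leptomeninges, cochlea and epithelia, measured 2.36, -0.49, 1.39, 2.46, 2.96 and 4.01 in 8 mm defects, against -1.66, -3.24, -1.46 and -1.78 in 4 mm defects. Again no values overlapped and rat 11 was the lowest of the 8 mm group (4.15 ± 0.94, limma, adjusted p = 0.0239). The Gjb2 call ended without rat 11 of the 4 mm group or rat 13, 14 or 15 of the 8 mm group (limma, adjusted p from 0.0502 to 0.0891).

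Eya2, a coactivator and phosphatase that works with sine oculis homeobox factors, measured 1.01, 0.26, 0.89, 1.96, 1.52 and 1.72 in 8 mm defects, against -1.69, -0.11, -2.04 and -0.67 in 4 mm defects (2.35 ± 0.45, limma, adjusted p = 0.00267). Cdk18, a cyclin-dependent kinase of the PCTAIRE group, measured 1.74, -0.26, 0.73, 1.57, 0.34 and 0.00 in 8 mm defects, against -2.04, -2.26, -1.19 and -0.83 in 4 mm defects (2.27 ± 0.43, limma, adjusted p = 0.00276). Tst, the mitochondrial sulfurtransferase rhodanese, measured 0.30, -0.28, 0.39, 0.76, 0.89 and 1.24 in 8 mm defects, against -1.05, -0.85, -3.21 and -1.26 in 4 mm defects (2.14 ± 0.51, limma, adjusted p = 0.0322). In each of these 3 genes the groups did not overlap. The Eya2 and Cdk18 calls held with each array left out but ended with quantile normalization (limma, adjusted p = 0.212 and 0.157), while that of Tst ended without rat 12 of the 4 mm group (limma, adjusted p = 0.248) or without rat 13, 14 or 15 of the 8 mm group (limma, adjusted p from 0.0665 to 0.0859).

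The remaining genes of the 17, singled out after their values were seen, were Armc5 (2.06 ± 0.48), the blood-forming factor Lyl1 (1.91 ± 0.46) and the Myc antagonist Mxi1 (1.66 ± 0.33), and in all 3 the sizes overlapped. Without rat 10 of the 4 mm group Armc5 differed by 0.99 (limma, adjusted p = 0.357), and without rat 11 of that group Lyl1 differed by 1.20 (limma, adjusted p = 0.392). Each of these calls ended without any 1 of 6 arrays, while that of Mxi1 held with each array left out and ended with quantile normalization (limma, adjusted p = 0.197). Raising ratios under 0.25 to 0.25 ended the calls of Armc5 and Lyl1 (limma, adjusted p = 0.391 and 0.266). Groups did not overlap in 13 of the 17 genes and in 24 of the 42. Over all genes, 103 (0.645%) lay wholly higher and 40 (0.25%) wholly lower in 8 mm defects.

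**Figure D2:**
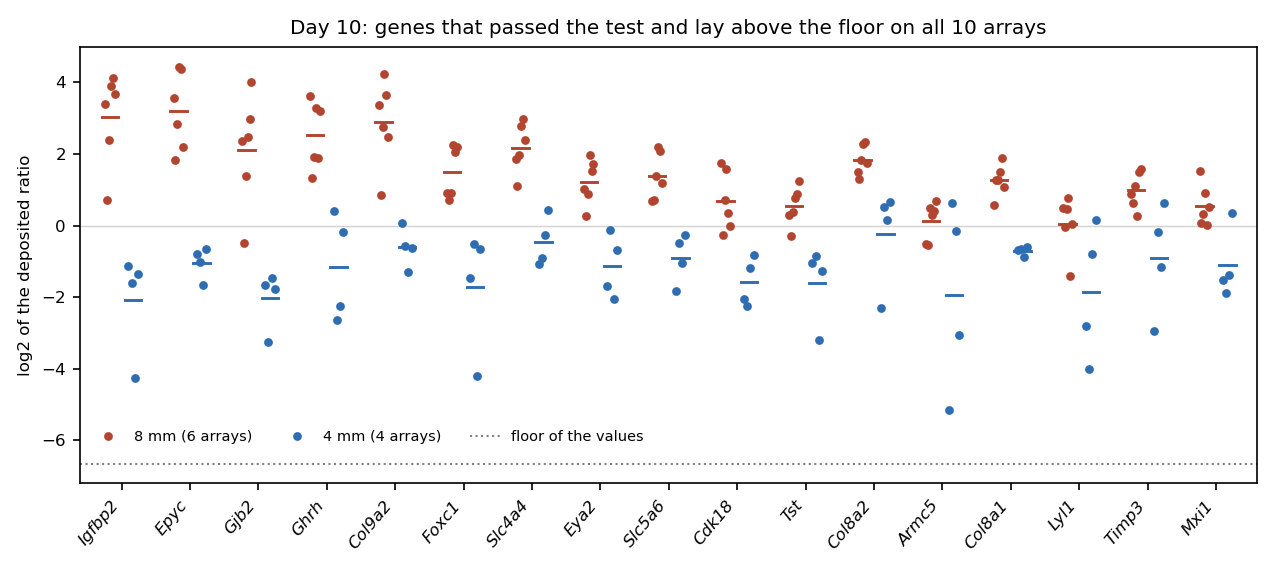
Log2 of the deposited ratio (vertical axis) of the 17 genes that passed and lay above the floor on all 10 arrays, with the 6 arrays of 8 mm defects left of the 4 arrays of 4 mm defects for each gene; bars are group means. Igfbp2 has the largest difference, 5.11, and the groups do not overlap in 13 of the 17 genes.

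Of the genes with values at the floor, the 6 higher ones with the smallest p were Rad9a, Foxi1 (a forkhead factor of inner ear and kidney), Serpina1, Foxc2, Whrn and Siae (an esterase acting on sialic acids). Rad9a, a subunit of the clamp that senses DNA damage, measured 0.58, -2.02, -0.85, -0.82, 1.05 and -0.98 in 8 mm defects and stood at the floor on 3 of 4 arrays of 4 mm defects, with -5.78 on the other (5.92 ± 0.62, limma, adjusted p = 7.58e-11). Serpina1, the antitrypsin gene, lay between -3.80 and 1.67 in 8 mm defects and was listed at the floor on all 4 arrays of 4 mm defects. Whrn, a scaffold protein of hair cells, was also listed at the floor on all 4, and on 1 of 6 arrays of 8 mm defects. With ratios under 0.25 raised to 0.25 the calls of Rad9a, Foxi1, Serpina1, Whrn and Siae ended (limma, adjusted p from 0.192 to 0.461). These calls thus rest on where the floor lies. The 2 genes called lower were Nup58, a protein of the nuclear pore, and the olfactory receptor gene Or14a258. Nup58 was at the floor on 4 of 6 arrays of 8 mm defects and measured 2.33, 0.62, 1.76 and 2.57 in 4 mm defects (-6.74 ± 1.56, limma, adjusted p = 0.0295), and any of 7 arrays ended its call when left out (limma, adjusted p from 0.0506 to 0.0708). Or14a258 was at the floor on 3 of 6 arrays of 8 mm defects (-4.28 ± 1.01, limma, adjusted p = 0.0322), and its call ended without any of 5 arrays (limma, adjusted p from 0.0648 to 0.131).

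No gene above the floor was called lower by limma, while 135 of 4874 with a negative difference (2.77%) had an unadjusted p under 0.05. The 12 of that direction with the smallest p are given as values only. Tmed9, a cargo receptor of the early secretory route, measured -2.65, -5.72, -2.00, -3.58, -2.98 and -2.17 in 8 mm defects, against -1.82, -1.54, 0.20 and -0.03 in 4 mm defects (-2.39 ± 0.61, limma, adjusted p = 0.0599). The groups did not overlap, and Tmed9 passed with each array centred (limma, adjusted p = 0.00232) and without rat 12 of the 8 mm group or rat 10 or 11 of the 4 mm group (limma, adjusted p from 0.0404 to 0.0471). The iron-binding protein Lcn2 measured -2.04, -1.07, -0.41, -1.94, -1.04 and -0.73 in 8 mm defects, against 0.02, 4.92, 0.49 and 0.75 in 4 mm defects, without overlap (-2.75 ± 0.93, limma, adjusted p = 0.229). The others were Efcab10, Tf, Nudt22, Tgif1, Gcnt2, Rnf25, Ttk, Taok3, Lztr1 and Trim45, with differences from -1.98 to -1.34 and adjusted p-values from 0.165 to 0.247 (limma). Of these, Tf, Gcnt2, Rnf25 and Lztr1 passed as lower with each array centred (limma, adjusted p from 0.0113 to 0.0434), and Ttk without rat 10 of the 4 mm group (limma, adjusted p = 0.045).

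No gene of bone formation itself was called. None of 25 measured members passed limma's test, against 0.263% of all genes, a share at which so short a list may well hold none. An unadjusted p under 0.05 (limma) was found in 0 of them, against 8.79% of all genes. Differences were positive in 17 (68.0%, against 44.3% of all genes), and the median was 0.47. Alkaline phosphatase (Alpl), needed for mineral, measured 2.60, 1.43, 2.93, 3.82, 3.18 and 2.87 in 8 mm defects and 1.09, 0.65, 1.52 and 1.65 in 4 mm defects, and only the low 8 mm array of rat 11 fell within the 4 mm range (1.58 ± 1.15, limma, adjusted p = 0.773). Osteomodulin (Omd), a keratan sulfate proteoglycan of bone, differed by 1.30 ± 0.75 and Dmp1, a mineral protein of osteocytes, by 1.22 ± 1.25. Bglap differed by 0.32 ± 1.18. The intervals are wide, so a difference of the size called elsewhere may have gone unseen. Col1a1 and Col1a2 had the same value, within 0.01, on 7 of 10 arrays, 4 of 6 of 8 mm and 3 of 4 of 4 mm defects, and on 51 of 93 over all days. No difference is given for them, and why the values were equal was not tested.

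Signals that drive bone formation gave mixed values. In the 22 lists with 0 calls by limma, 30 of 354 genes (8.47%) had an unadjusted p under 0.05, against 1404 of all 15974 genes (8.79%). Of 26 measured BMP and TGF-beta genes 0 passed, with a median of 0.46, but 3 lay wholly higher in 8 mm defects, as 0.645% of all genes did. Bmp6 measured 1.97, 2.10, 2.36, 3.47, 3.31 and 3.40 in 8 mm defects, against 0.18, -0.43, -4.25 and -0.53 in 4 mm defects. The Bmp6 difference was 4.02 ± 1.14 (limma, adjusted p = 0.118, and 0.00127 with ratios under 0.25 raised to 0.25). Bmp4 differed by 3.10 ± 0.84 and the inhibitor Smad6 by 2.81 ± 1.00 (limma, adjusted p = 0.0966 and 0.278). In the Wnt list 0 of 22 passed and the median was -0.14. The ligand Wnt4 lay between 0.52 and 2.93 in 8 mm defects and between -5.22 and -0.62 in 4 mm defects, and the secreted Wnt antagonist Frzb between 0.21 and 1.51 in 8 mm and between -2.27 and -0.47 in 4 mm defects, both without overlap (3.06 ± 0.92 and 2.09 ± 1.35, limma, adjusted p = 0.144 and 0.712). In the osteoclast list 0 of 13 passed, the median was -0.43, and Tnfsf11 (RANKL), the signal that makes osteoclasts form, lay wholly lower, as 0.25% of all genes did. Tnfsf11 measured -6.64, 0.00, -0.70, -6.64, 0.77 and -0.79 in 8 mm defects, against 1.01, 1.51, 2.99 and 3.17 in 4 mm defects (-4.51 ± 1.79, limma, adjusted p = 0.368).

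The lists of other processes and cell types had 0 calls, against 0.263% of all genes. The values that follow are medians of differences, to be read against -0.11 for all genes. Cell cycle genes had the lowest, -0.57, with 19 of 21 members negative (9.5% positive, against 44.3% of all genes). The fibroblast and wound matrix list had 17 of 19 negative (10.5% positive) and a median of -0.23. Members of a list were measured on the same arrays, so they are not replicates of a size. Inflammatory cytokines (22 genes) stood at -0.52, macrophage genes (20) at -0.42, and hypoxia and glycolysis genes (17) at -0.39. Cxcl2, a chemokine that draws neutrophils, differed by -2.55 ± 0.98, Il6 by -1.52 ± 0.72 and the macrophage arginase Arg1 by -1.54 ± 0.55, none of which passed (limma, adjusted p = 0.336, 0.524 and 0.279). Erythroid and marrow genes were positive in 9 of 10 members (90.0%, against 44.3% of all genes), with a median of 0.84. The red-cell factors Klf1 and Gata1 differed by 1.39 ± 0.78 and 1.28 ± 0.69. The medians of the cell cycle, fibroblast, cytokine, hypoxia and erythroid lists kept their sign in all 21 alternatives, and that of the macrophage list in all but 1. The list score of erythroid genes lay between -0.26 and 2.26 in 8 mm and between -0.20 and 1.35 in 4 mm defects. That of cell cycle genes lay between -2.05 and -0.74 in 8 mm and between -1.97 and 1.02 in 4 mm defects. For the fibroblast and wound matrix list it lay between -0.96 and 0.94 in 8 mm and between -0.94 and 0.89 in 4 mm defects. The score of skeletal muscle lay between -3.01 and -0.80 in 8 mm and between -3.43 and -1.09 in 4 mm defects, and that of brain between -1.68 and -0.83 in 8 mm and between -3.08 and 0.19 in 4 mm defects, so these overlapped as well.

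The other lists had medians of 1.00 (B and plasma cell, 7 genes), 0.47 (skeletal muscle, 20), 0.29 (epidermis and hair follicle, 12), 0.25 (interferon response, 16), 0.19 (brain, 14), 0.14 (mast cell, 8), 0.13 (neutrophil, 16) and 0.11 (T and natural killer cell, 17). Below 0 were smooth muscle and pericyte (-0.26, 12 genes), endothelium (-0.28, 15) and adipocyte (-0.50, 11). Of these 11 lists, only the B and plasma cell median had the same sign in all 21 alternatives. Only 2 of its 7 genes lay above the floor on all 10 arrays. Its score was 2.52 on the 8 mm array of rat 11 and between -2.48 and -0.73 on the other 8 mm arrays. In 4 mm defects it lay between -1.70 and -0.14. The median score was -1.26 in 8 mm and -1.19 in 4 mm defects, so the scores do not show higher levels in 8 mm defects.

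**Figure D3:**
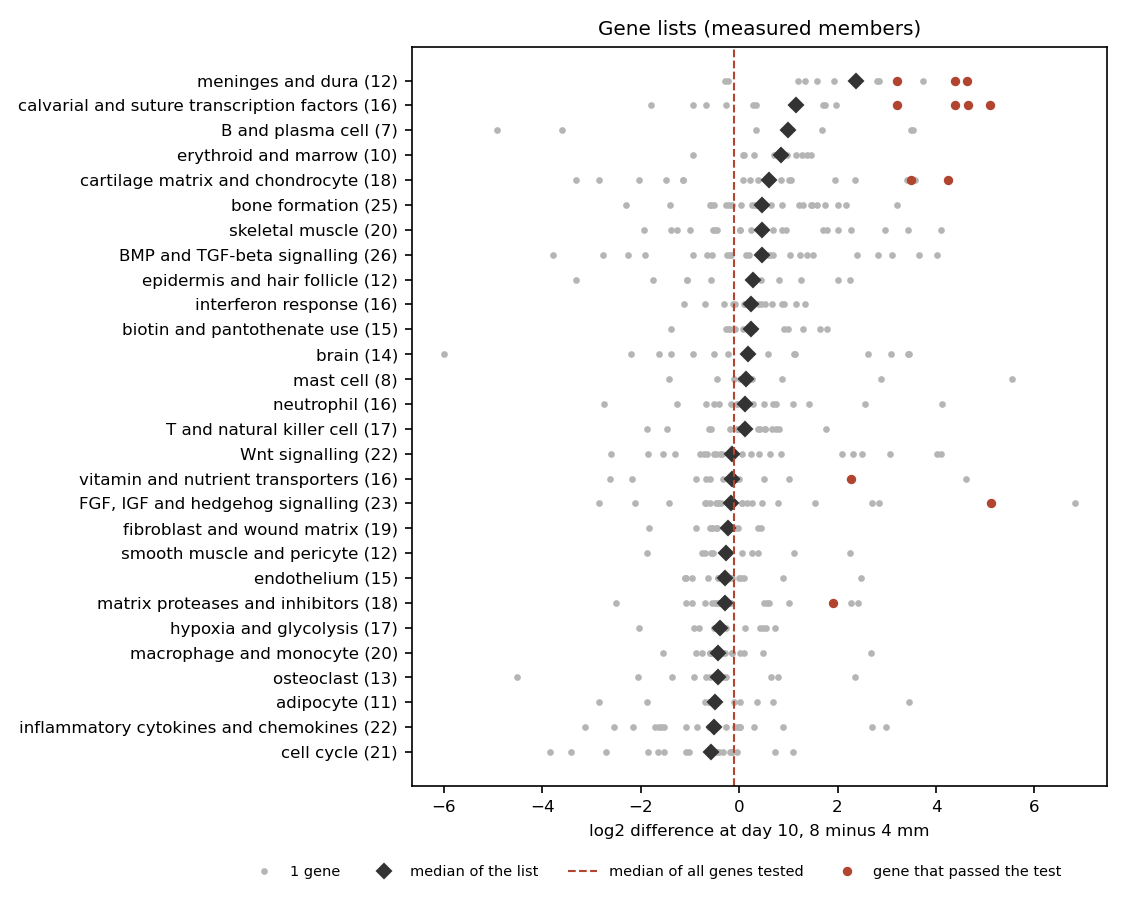
Difference at day 10, 8 minus 4 mm, on the log2 scale (horizontal axis) of each measured gene of the 28 lists (grey), with genes that passed in red, list medians as diamonds and the median of all genes, -0.11, as a dashed line. The meninges and dura list has the highest median, 2.37, and the cell cycle list the lowest, -0.57.

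The called genes were followed over the neighbouring days. In 4 mm defects the day 10 mean lay below both the day 7 and the day 14 mean in 17 of the 17 genes above the floor, against 34.4% of the 7937 genes above the floor. Set against day 7 by itself it was lower in 77.6% of the 7937 genes, so most genes shared that drop. In 8 mm defects the day 10 mean lay above the day 7 mean in 17 of 17, against 46.2%, and in 6 of 17 above the day 14 mean too, against 25.6%. The choice of genes with a large difference at day 10 favours these patterns, so the counts are a description. Foxc1 had means of 0.99 ± 1.35, 1.50 ± 0.73 and 1.79 ± 0.64 at days 7, 10 and 14 in 8 mm defects (SD, n = 5, 6 and 6), and 0.02 ± 2.0, -1.71 ± 1.72 and 0.02 ± 1.08 in 4 mm defects (SD, n = 5, 4 and 5). For Slc5a6 the means were 0.13, 1.38 and 1.81 in 8 mm and 0.02, -0.90 and 0.46 in 4 mm defects. Col9a2 stood at 1.48, 2.88 and 3.06 in 8 mm and at -0.58, -0.61 and 0.76 in 4 mm defects, so that the 4 mm level at day 10 was close to that at day 7. The meninges and dura score was 0.90, 0.75 and 0.54 in 8 mm and -0.04, -1.51 and 0.17 in 4 mm defects on these days, and its ranges overlapped between sizes at days 7 and 14.

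**Figure D4:**
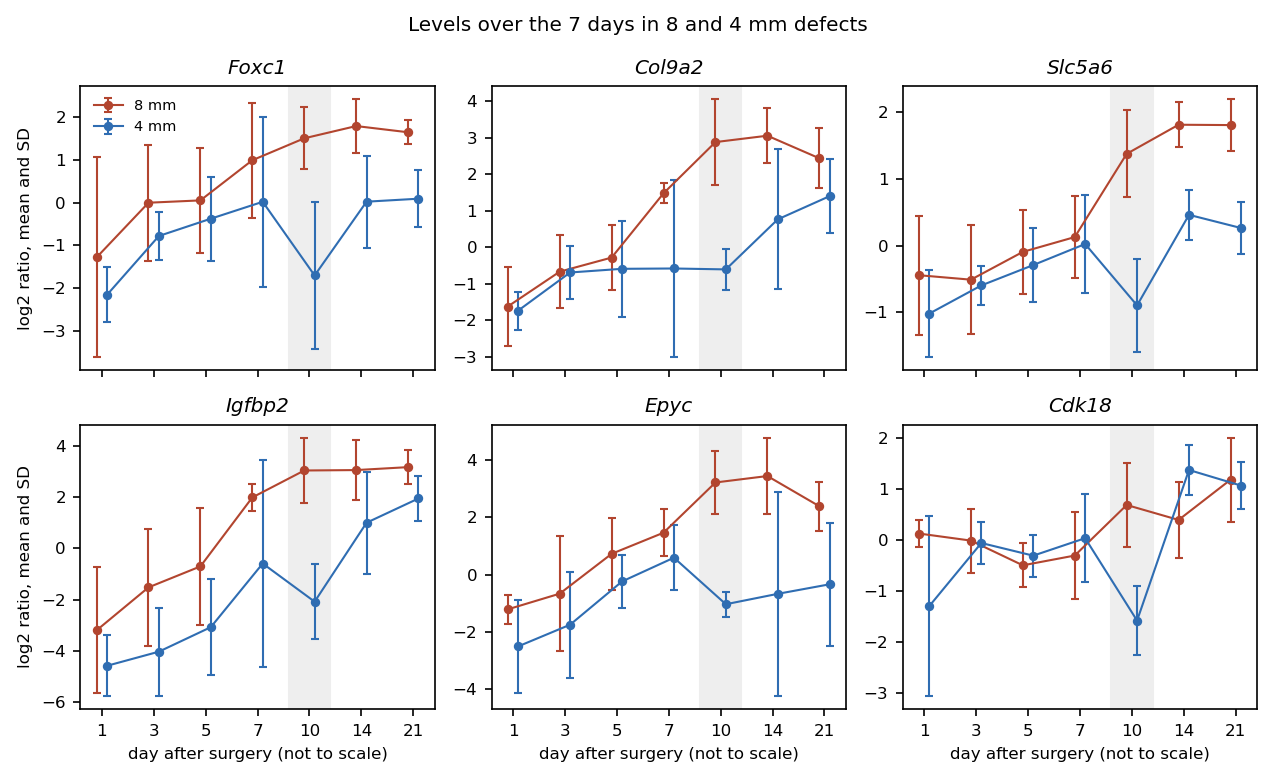
Group means with SD of log2 ratios (vertical axes, each with its own scale) at the 7 days in 8 mm and 4 mm defects for 6 called genes; day 10 is shaded and the days are spaced evenly. For Foxc1, Slc5a6, Igfbp2, Epyc and Cdk18 the 4 mm mean at day 10 is below that at day 7, and for Col9a2 it is about the same. The 4 mm mean is lower at day 10 than at day 7 in 77.6% of the 7937 genes above the floor.

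Of the 42 genes, 0 were also called at day 7, where 59 genes passed (9 higher), 4 at day 14, where 261 passed (243 higher), and 2 at day 21, where 383 passed (86 higher). The 4 shared with day 14 were Slc5a6 (1.35, limma, adjusted p = 0.0392), Epyc (4.10, limma, adjusted p = 0.00854), Col8a2 (1.55, limma, adjusted p = 0.0229) and Col8a1 (1.59, limma, adjusted p = 0.0374), and the 2 shared with day 21 were Slc5a6 (1.55, limma, adjusted p = 0.00971) and Lyl1. Among the 40 called higher, the difference was above 0 in 27 at day 7, 28 at day 14 and 28 at day 21. The share of all genes above 0 on those days was not counted, so these counts do not show that the difference lasted. Over the 7937 genes the day 10 differences correlated with those of day 7 at r = 0.28, of day 14 at -0.03 and of day 21 at 0.16, which is across genes and thus no replication.

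Whether the size difference itself changed between days was tested directly. It differed between days 10 and 7 in 11 genes (0.0689%), between days 10 and 14 in 60 (0.376%), and between day 10 and the mean of the other 6 days in 7 (0.0438%). Of the 42 called genes 2, 7 and 6 passed these tests. The 42 were chosen on the day 10 difference, which enters each test and favours passing, so these counts are a description. Cdk18 was the only one of the 17 above the floor to differ from the mean of the other days, by 2.25 ± 0.46 (limma, adjusted p = 0.0218). Its size difference was -0.34 at day 7 and -0.98 at day 14, and the change to day 14 was 3.24 ± 0.60 (limma, adjusted p = 0.00143). For Ghrh the change between days 10 and 14 was 5.42 ± 1.22 (limma, adjusted p = 0.0174). The corresponding changes of Foxc1 (1.44 ± 1.06), Col9a2 (1.20 ± 1.01) and Slc5a6 (0.92 ± 0.55) did not pass, nor did their changes between days 10 and 7 (2.24 ± 1.08, 1.43 ± 1.03 and 2.17 ± 0.56, the last with adjusted p = 0.113 by limma). These 3 genes were therefore not shown to differ more between sizes at day 10 than at the neighbouring days.

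**Figure D5:**
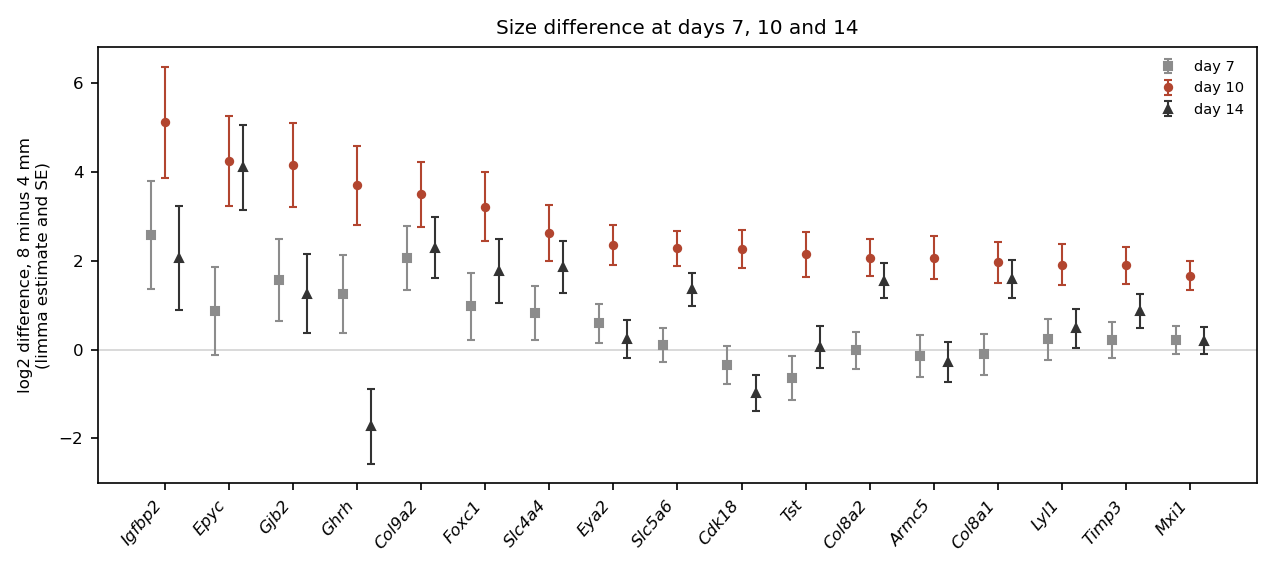
Size difference, 8 minus 4 mm, on the log2 scale (vertical axis) with its limma SE at days 7, 10 and 14 for the 17 genes. The day 10 estimates are the highest for each gene, since the genes were chosen on them; Epyc is nearly as high at day 14 (4.10), while Ghrh is at -1.73 and Cdk18 at -0.98 there.

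Over all 93 arrays, the 3 genes whose levels were most like those of Foxc1, by Pearson correlation, were Igfbp2 (r = 0.81), Foxc2 (0.78) and Aspg (0.78). For Col9a2 they were Igfbp2 (0.82), Igf2 (0.82) and Slc24a3 (0.80), and for Slc5a6 they were Ism1, which encodes isthmin, Slit2, a guidance cue, and Msx1 (0.83, 0.83 and 0.80). The arrays share the days of healing and the scaling of each array, so these are descriptions of levels over time and size together.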

How the data were processed

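RNA of 93 defects was labelled with Cy3 and hybridised to Agilent whole-genome rat arrays, 1 array a defect, per the labels' protocols. The table that the authors deposited holds linear ratios. Over the arrays, 87.8% of 41090 probes had a median of 1 (within 0.001) and 12.2% a lower one, and 13.4% of values stood at the lowest value, 0.01. How background and array scale were treated, why the floor exists, and slides or scan dates: each is not given in the sources used here, so signal over background and such batches could not be examined. The number of arrays limits the precision.

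Probes were named from the platform annotation. Of them 20932 had 1 symbol, 0 several and 20158 none, and 17415 were matched by accession to current RefSeq names. Of several probes of a gene (3881 of 15974 genes) the most variable one by interquartile range stood for the gene. Log2 of the ratio was taken with no pseudocount. Groups of day and size came from the sample titles. A model of the 14 group means was fitted with limma 3.58.1 (lmFit, eBayes; prior df 1.9) in R 4.3.3, with two-sided tests, Benjamini-Hochberg adjustment over all genes and a threshold of 0.05. The code was tested on simulated data. Gene lists (28, with 461 of 502 entries measured) were described by counts and medians, and the score of a list averages log2 values over its measured genes, array by array. The members, markers and lists were chosen with earlier results of these data known.

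Named were, among genes that passed and lay above the floor on all 10 arrays, the 12 with the largest increase and decrease (filled with the smallest p, as values), up to 6 each way that passed with values at the floor, called list members, and the 3 members of a list with the largest difference above the floor. Some of the last are given in the text only as part of their list. Alternatives were centring, quantile normalization, filters on low and on less variable genes, a raised floor, the mean of probes, array weights, the 10 arrays alone, the rat number as a block, leaving out the 3 arrays of low level, a trended robust prior, and leaving out each array in turn. Promoter windows are those of RefSeq for GRCr8; no genome or protein table was used here.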

Additional observations from a re-analysis of the deposited data

Results flagged for a closer look

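Within a size, 29 values stood apart from the rest of their group by Dixon's test, out of 226 groups of values examined; chance alone gives about 1 in 20. Of these, 10 belong to the array of rat 11 of the 8 mm group. On it Tf (-4.74), Taok3 (-6.17), Wif1 (-0.072), S100a9 (-1.40), Egfl7 (-3.31), Esam (-4.99), Birc5 (-3.47) and Slc3a2 (-1.04) were the lowest of 6, Aurka (6.18) was the highest of 6, and the share of probes at the floor, 10.4%, was the lowest. The level of this array was also the lowest of its group, -0.97, and its part in these values was not tested. Elsewhere among 8 mm defects, Rnf25 (-3.65) and Blnk (-0.92) on the array of rat 10, Lyl1 (-1.40) and Whrn (-6.64) on that of rat 14 and Gdf10 (0.84) on that of rat 15 were the lowest of 6, and Wnt4 (2.93) on that of rat 15 was the highest.

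In 4 mm defects, the array of rat 10 had the lowest values of Col8a2 (-2.30), Slc3a2 (-1.67), Ppcs (-3.57) and Coasy (-0.73), together with the lowest array level, -1.03, whose part was not tested. The array of rat 12 had the lowest values of Igfbp2 (-4.25), Bmp6 (-4.25) and Wnt4 (-5.22) and the highest of Rad9a (-5.78). The lowest Nudt22 (-0.70) and the highest Lcn2 (4.92) and Vegfa (1.39) values were on that of rat 11, and the lowest Pc value (-2.91) on that of rat 13.

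The size difference changed between days, by a test of that change, in 8 of the named genes. These genes were named for their difference at day 10, which enters the test and favours passing. Above the floor, Cdk18 differed by 3.24 ± 0.60 more at day 10 than at day 14 (limma, adjusted p = 0.00143) and by 2.25 ± 0.46 more than at the mean of the other 6 days (limma, adjusted p = 0.0218). Ghrh differed by 5.42 ± 1.22 more at day 10 than at day 14 (limma, adjusted p = 0.0174). Lcn2 ran the other way, with a change of -7.07 ± 1.27 between days 10 and 14 (limma, adjusted p = 0.00119). The other 5 genes had values at the floor, so their changes depend on where the floor lies. Rad9a differed more at day 10 than at day 7 (6.43 ± 0.86, limma, adjusted p = 1.32e-06), than at day 14 (7.28 ± 0.84, limma, adjusted p = 6.93e-09) and than at the mean of the other days (6.37 ± 0.66, limma, adjusted p = 4.83e-11). Foxi1 differed more than at day 14 by 4.51 ± 0.92 and than at the other days by 3.88 ± 0.71 (limma, adjusted p = 0.00659 and 0.003), and Serpina1 by 6.16 ± 1.31 and 5.74 ± 1.02 (limma, adjusted p = 0.00967 and 0.00201). The changes between days 10 and 14 were -8.43 ± 2.14 for Nup58 and -6.24 ± 1.39 for Or14a258 (limma, adjusted p = 0.0468 and 0.0166).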

How the results depend on the processing

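The count of 42 genes became 93 with each array centred, 12 with quantile normalization, 17 when only the 7937 genes above the floor were tested, 3 with the less variable genes left out, 21 with array weights, and 8 with the 10 arrays alone. Leaving out each array in turn gave 24 to 72 (24 without rat 13 or rat 15 of the 8 mm group, 65 without rat 11 of it and 72 without rat 13 of the 4 mm group). Without the 3 arrays of low level 37 passed, 30 higher, of which 17 are among the 42. Raising the floor gave 33, the mean of probes 54 and a trended robust prior 47. Both sizes share 4 rat numbers, and the main model has no term for them. Over 5412 genes never at the floor, deviations from the group means correlated at 0.17, 0.03, -0.06 and -0.05 between arrays of a shared number. Between arrays of different numbers the correlations ran from -0.29 to 0.26. Such correlations cannot settle whether a shared number means the same animal. The number was also taken as a replicate block, fitted on the 10 arrays alone. Then 0 genes passed limma's test and 669 had an unadjusted p under 0.05. Without the block the 10 arrays gave 8 and 712. In the block fit, 8 mm arrays whose number no 4 mm array shares add nothing to the size difference, which rests on the 4 shared numbers. The fits thus differ in the arrays that inform the difference as well as in the block.

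The 11 genes that differed between days 10 and 7 became 7 among genes above the floor. The 60 that differed between days 10 and 14 became 8 with quantile normalization and 18 above the floor. The 7 that differed from the mean of the other days became 13 with centring, 3 with quantile normalization, 1 above the floor and 15 without the 3 arrays of low level. Among named genes that never passed, signs turned for Mcam (0.14 with the mean of probes), Aurka (-0.56) and Ppcs (-0.39) without the 3 low arrays, and when single arrays were left out for Hdc (-0.92 to 0.40), Aurka (-0.083 to 1.61), Birc5 (-0.015 to 1.42), Slc3a2 (-0.023 to 0.79), Pc (-0.40 to 0.58) and Ppcs (-0.63 to 0.66). The cause of these changes was not tested. Of the 28 list medians, 12 kept their sign in all 21 alternatives.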
